A study of Drosophila melanogaster with 8 samples.

Results

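The genomic landscape of H3K9me3 that was still found in Drosophila melanogaster ovaries after knockdown of small ovary (Sov) is described here, from 4 of the 8 libraries of the study. They are 2 H3K9me3 chromatin immunoprecipitation (ChIP) libraries and the 2 input libraries saved before immunoprecipitation, all from adult ovaries of flies that carried the MTgal4 driver and a short hairpin against Sov (labelled MTgal4_shSov, here shSov). The other 4 libraries are the same 2 kinds from flies that carried MTgal4 and the shW hairpin (labelled MTgal4_shW), taken as the control. All flies carried the driver and were fed yeast before dissection. MTgal4 drives hairpins in germ cells, while ovaries also hold somatic follicle cells, so the mark in germ cells and the mark in follicle cells cannot be told apart in these values. The libraries measure chromatin and not the Sov transcript, so the depth of the knockdown was not measured.

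Trimethylation of lysine 9 on histone H3 marks constitutive heterochromatin, the repeat-rich chromatin around centromeres and on the small chromosome 4, where it is bound by HP1a. In the fly ovary it is laid down mainly by the methyltransferase Eggless (SETDB1), and it also covers piRNA clusters, the transposon-rich loci that give rise to the small RNAs that silence transposons. Sov is a large zinc-finger protein that associates with HP1a.

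The genome (build dm3) was divided by the authors into 168744 windows of 1 kb on 15 scaffolds, and 117442 windows that reached a mean input of 2 RPKM (reads scaled to window length and library size) in shSov were examined. Enrichment is log2((ChIP RPKM + 1)/(input RPKM + 1)) within each replicate, and a window is called enriched when it is at least 2-fold, that is 1 on this log2 scale, in both replicates. The shSov ChIP libraries held 16514896 and 5847945 reads and their inputs 27962050 and 26348096, which gave a median of 110 and 38 ChIP reads and of 210 and 198 input reads per window. The shW ChIP libraries held 4208693 and 6383061 reads. The shSov replicates had a median absolute difference in enrichment of 0.194 over all windows. Each value is relative to the total of its library, so a loss shared by the whole genome would not be seen. Because each group has 2 libraries, no exact permutation test between groups can give a p below 0.333.

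Most of the windows enriched for H3K9me3 in shSov ovaries lay in or next to pericentromeric sequence. The enriched windows numbered 7143, or 6.08% of the windows examined, and 7515 and 8341 passed in each replicate alone. The Het scaffolds, 5 assembled blocks of centromere-near heterochromatin with windows to examine, had 2553 enriched windows of 2935 (87.0%). The unplaced scaffold U had 488 of 570 (85.6%), and the last 1 Mb of the arms next to the centromere had 1718 of 3560 (48.3%). Chromosome 4 had 517 of 1174 (44.0%), while the rest of the arms had 1823 of 109075 (1.67%). The rest of the arms takes in the outer parts of marked blocks on 2R and 3L that are described below. Outside the marked blocks of 2L, 2R and 3L, 1283 of 109992 arm windows (1.17%) were enriched. No window of the Y scaffold reached the input minimum. It was met by 5.67% of the windows of U and 32.8% of those of the Het scaffolds, against 95.7% on the rest of the arms. The shares given for U and the Het scaffolds therefore hold for a part of each.

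The Het scaffolds took 7.16% and 7.20% of all ChIP reads in shSov, against 1.57% and 1.56% of input reads, a 4.59-fold excess of the mean. The 1 Mb proximal intervals took 6.70% and 6.85% of ChIP reads, against 2.57% and 2.55% of input reads. Chromosome 4 took 2.65% and 2.59% of ChIP reads, against 1.10% and 1.04% of input reads. The whole of U took 1.73% and 1.76% of ChIP reads, against 1.00% and 1.46% of input reads, a 1.42-fold excess of the mean. In all of these the ChIP and input libraries did not overlap. The exact permutation test, two-sided, gave p = 0.333 for each class, the smallest it can give, and 0.333 after adjustment over the 6 classes.

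In the test across all windows, edgeR's quasi-likelihood test with Benjamini-Hochberg adjustment, 16687 windows (14.2%) were higher in ChIP than in input and 57782 (49.2%) were lower. All 7143 enriched windows were among the higher ones, but both calls rest on the same contrast, so this is no independent check. The balance of the calls depended on scaling: TMM factors gave 24128 higher and 10628 lower, and DESeq2 gave 17149 higher and 1414 lower. By the edgeR test 98.1% of the Het windows were higher, and 85.6% of those of chromosome 4 were.

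**Figure D1:**
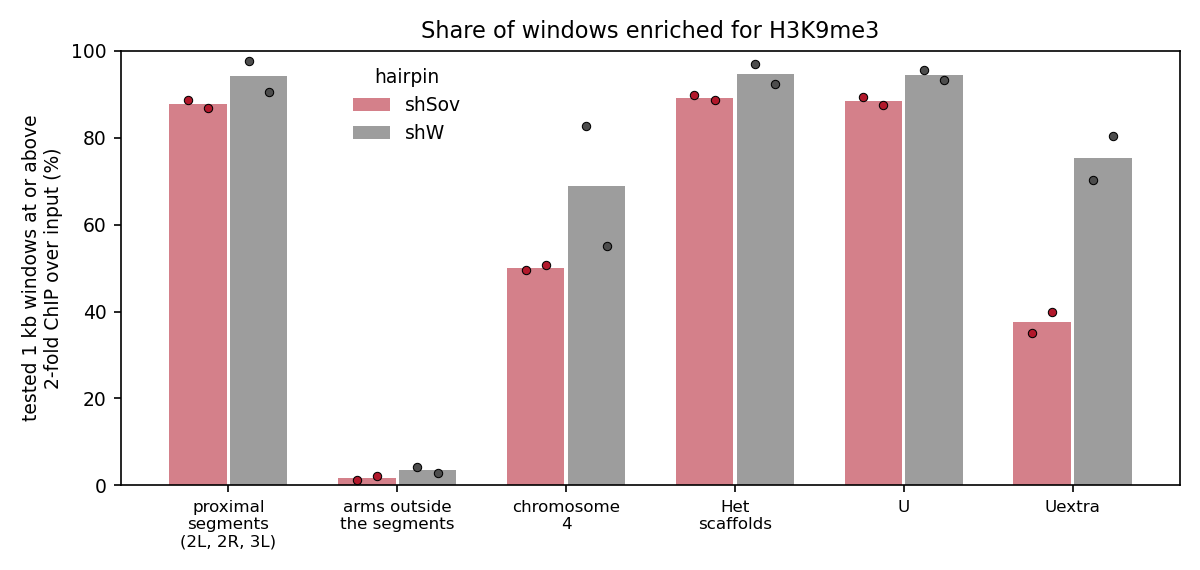
Share of examined 1 kb windows (y axis, %) with ChIP at least 2-fold over input, by place (x axis), for shSov (red) and shW (grey). Bars are the mean of 2 libraries and points are single replicates; the proximal segments were placed in shSov. Shares in the shSov proximal segments, Het scaffolds and U lie between 86.8% and 89.7%, and the shares on chromosome 4 are 49.6% and 50.7% in shSov against 82.6% and 55.0% in shW.

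The level of the mark differed among the places as its frequency did. Mean enrichment on the Het scaffolds was 1.83 and 1.83 in the shSov replicates, and on the proximal 1 Mb it was 1.03 and 1.05. Chromosome 4 had 1.00 and 1.01, and the rest of the arms had -0.22 and -0.26. Among these places the Het scaffolds lay highest and the rest of the arms lowest, by far more than replicates differed. The proximal 1 Mb and chromosome 4 had nearly the same level. However, the proximal 1 Mb pools the marked ends of 2L, 2R and 3L with those of 3R and X, which had no marked block. In the marked blocks alone, placed below from these same values, the mean was 1.83 and 1.83, level with the Het scaffolds.

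Among the 7143 enriched windows, 1856 (26.0%) had a mean enrichment of 1 to 1.5 and 2396 (33.5%) of 1.5 to 2. A further 2030 (28.4%) reached 2 to 2.5, 806 (11.3%) reached 2.5 to 3, and 55 (0.770%) exceeded 3. At 2 or above were 50.7% of the enriched Het windows, 49.5% of those in the proximal 1 Mb, 46.5% of those on U, 22.9% of those on the rest of the arms and 16.2% of those on chromosome 4. Of the 55 above 3, 24 lay on the rest of the arms, 19 in the proximal 1 Mb and 12 on the Het scaffolds. No arm window outside the marked blocks at the centromere ends exceeded 2.65, so these 24 lay in parts of the blocks beyond 1 Mb. The 22.9% takes in those parts too. Since the threshold chose the enriched windows, the levels are a description. Beside it, 2L 22445001-22446000 passed with 1.16 and 1.00, and U 200001-201000 missed it with 1.00 and 1.05, its first value falling just under 1.

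The single strongest window of all was 2R 1224001-1225000. It had 76.6 and 82.9 RPKM in the shSov ChIP libraries, against 6.76 and 7.33 RPKM in the shSov inputs. The strongest window of the Het scaffolds, 3LHet 390001-391000, had 42.4 and 41.0 RPKM in ChIP against 3.65 and 3.49 RPKM in input. On chromosome 4 the strongest was 227001-228000, with 81.3 and 81.9 RPKM in ChIP against 10.9 and 10.8 RPKM in input. These windows were chosen for this contrast, so the values are a description.

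The share of enriched windows moved with the number of input reads. On the Het scaffolds it was 92.4% where the input was 2 to 4 RPKM and 53.8% where it was 8 RPKM or more. On the proximal 1 Mb of the arms it was 81.1% and 16.2% in the same ranges. The part that input level plays in the enrichment was not tested.

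The Het scaffolds were not alike. The scaffold 2RHet had 964 enriched windows of 1062 (90.8%) and 3LHet had 830 of 910 (91.2%). 3RHet had 84.5% and 2LHet 83.3%. XHet stood below them with 37 of 107 (34.6%) and a mean enrichment of 0.86 and 0.97 in the shSov replicates, against 0.93 and 0.81 in shW. In single replicates its share was 35.5% and 39.3% in shSov, against 46.7% and 36.4% in shW.

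The arms themselves were marked in one block at the centromere end of 2L, 2R and 3L. To place its outer boundary, windows were read from the centromere end, each enriched window adding 1 and each other examined window taking 1 away, and the boundary is where this sum was highest. A block was accepted where the sum reached 50. The 3 blocks, called proximal segments here, held 2643 examined windows, of which 2258 (85.4%) were enriched, with a mean enrichment of 1.83 in each shSov replicate. By arm, 469 of 577 windows (81.3%) were enriched on 2L, 978 of 1131 (86.5%) on 2R and 811 of 935 (86.7%) on 3L. The segments were placed from these same values, so the contrast with the rest of the arm is a description.

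On 2L the boundary lay 842 and 843 kb from the assembled end in the shSov replicates, against 882 and 859.5 kb in the shW replicates. On 2R it lay at 1532 and 1535 kb in shSov, against 1620 and 1585 kb in shW. On both arms the marked block was shorter in both shSov libraries than in either shW library, with differences in the mean of -28.5 kb on 2L and -69 kb on 2R. On 3L the boundary lay at 1534 and 1536 kb in shSov, against 1538 and 1536 kb in shW, a difference of -2 kb with values that touch. The exact permutation test, two-sided, gave p = 0.333, 0.333 and 0.667 on 2L, 2R and 3L, and 0.833, 0.833 and 1 after adjustment over the 5 arms. The differences were smaller on 2R, at -30.5 kb, and larger on 3L, at -22.5 kb, with a pseudocount of 5, and the 2R difference was -26.5 kb when each library was centred on the distal autosomal arms. On 2L it was -17.5 kb without shW ChIP replicate 1.

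3R and X showed no such block. Reading from the centromere end, the sum peaked at 2 and 6 on 3R and at 0 and 7 on X in the shSov replicates. In shW the peaks were 29 and 2 on 3R and 9 and 0 on X, so neither arm reached 50 in any library.

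Mean enrichment dropped across the boundary in shSov. With the boundary placed in one replicate and the other replicate measured over 20 kb on each side, mean enrichment on 2R was 2.16 inside against 0.32 outside, a step of 1.84, and 1.44 with the replicates exchanged. The step was 0.92 and 0.98 on 2L and 0.84 and 0.85 on 3L. The placing rule favours enriched windows inside and others outside, and the 2 replicates were much alike, so these steps are a description. In 10 kb bins from the boundary of both replicates, the first bin outside on 3L had 1.05 and 1.15, against 1.13 and 1.28 just inside. On 2R the third bin outside rose again to 1.54 and 1.60. In the first 50 kb beyond the boundary 12 of 50 windows were still enriched on 2L, 16 of 50 on 2R and 4 of 43 on 3L. Between 100 and 200 kb beyond it, none of 91, 100 and 99 windows was.

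The levels just outside were also read in shW. The boundary lies where the shSov sum stops rising, so low shSov values there follow from its placing, and the comparison is a description. On 2R the mean over the first 50 kb outside was 0.76 and 0.83 in shSov, against 1.34 and 0.93 in shW. Over the next 50 kb it was 0.42 and 0.58 in shSov, against 1.23 and 0.72 in shW. On 2L the first 50 kb averaged 0.49 and 0.49 in shSov, against 1.23 and 0.78 in shW. On 3L it was 0.35 and 0.33 in shSov, which lay between the shW values of 0.48 and 0.03.

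**Figure D2:**
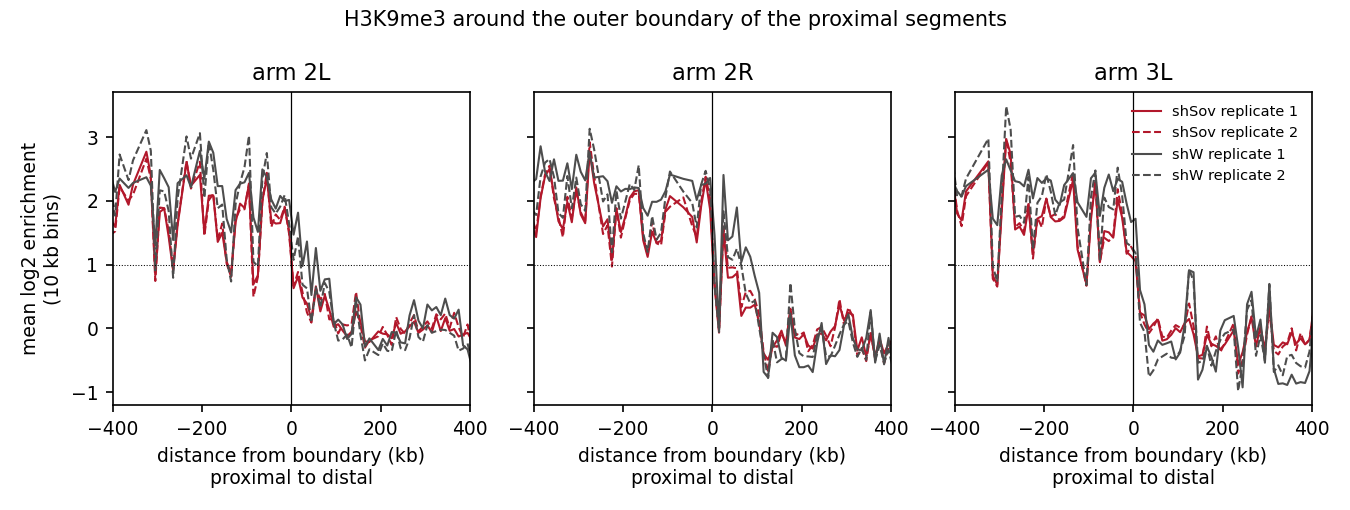
Mean log2 enrichment in 10 kb bins (y axis) by distance in kb from the outer boundary of the proximal segment found in both shSov replicates (x axis; centromere side to the left) on 2L, 2R and 3L, with shSov in red and shW in grey and replicate 2 dashed. The dotted line marks the 2-fold threshold. The shSov lines are below it in the first bin outside on 2L and 2R and in the second, at 0.24 and 0.25, on 3L, with a further peak of 1.54 and 1.60 close outside on 2R.

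Within the segments the mark was interrupted. The 385 examined windows that were not enriched fell into 168 stretches, of which 92 were a single window and 19 held 5 or more. Of these windows 147 (38.2%) were enriched in shW. The longest stretch, 3L 23317001-23331000, averaged 0.62 and 0.58 in shSov, against 1.57 and 0.68 in shW. It adjoined one of the strongest runs of the genome. The next longest, 2L 22874001-22886000, averaged 0.53 and 0.60 in shSov, against 1.65 and 0.94 in shW. The stretches were chosen for low shSov values, so lower values there than in shW follow from the choice. The shW replicates were far apart in both.

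Enriched windows clustered into runs. Counting runs of at least 10 enriched windows, with single-window gaps joined, shSov had 204 runs that covered 3669 kb and held 3402 enriched windows, 47.6% of the total. Their median length was 15 kb, with quartiles of 13 and 22 kb and a range of 10 to 52 kb. By the same rule shW had 243 runs over 4577 kb, the longest of 84 kb. The proximal segments held 85 of the shSov runs, the Het scaffolds 79, chromosome 4 had 19, U had 13 and the arms outside the segments had 8. The arms outside the segments had 25 runs in shW.

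The longest run, 3L 23438001-23490000, had 50 of its 51 examined windows enriched. Its mean enrichment was 2.19 and 2.20 in shSov, against 2.23 and 2.45 in shW. 2R 1332001-1380000 followed with 48 kb, at 1.96 and 1.92 in shSov against 2.16 and 2.18 in shW. The longest run of 2L, 22334001-22378000, covered 44 kb, at 1.92 and 1.96 in shSov against 2.66 and 2.53 in shW, the widest gap of the 3. In each of them both shSov values were below both shW values.

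The highest mean of any run was that of 2R 419001-434000, with 2.54 and 2.57 in shSov, against 2.52 and 2.90 in shW. The run 3L 23288001-23317000, inside the 80F piRNA cluster region, had 2.50 and 2.49 in shSov, against 2.51 and 2.89 in shW. 2RHet 2236001-2250000 had 2.48 and 2.54 in shSov, against 1.94 and 2.41 in shW, and so was among the few runs with a higher mean enrichment in shSov. Its mean input was 2.92 and 3.09 RPKM in shSov but 0.84 and 1.04 RPKM in shW, about the size of the pseudocount of 1. On its summed counts, without that pseudocount, the difference between shSov and shW had the other sign, at -0.23 on the log2 scale (unadjusted p = 0.46, edgeR). The groups overlapped in the first of these runs and did not in the others. At the other end, 3 of the 5 lowest runs were on chromosome 4, and the lowest, 4 492001-504000, had 1.21 and 1.29 in shSov, against 2.16 and 1.52 in shW.

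Outside the segments, 3 of the 8 runs lay in the 42AB region and the other 5 on X. The 42AB run 2R 2167001-2182000 had 1.91 and 2.10 in shSov, against 2.00 and 2.51 in shW. 2R 2344001-2358000 had 1.48 and 1.43 in shSov, against 2.06 and 2.24 in shW, with no overlap. On X, the run 6446001-6457000 had 1.69 and 1.92 in shSov, against 1.41 and 1.84 in shW, and 21827001-21841000 had 1.50 and 1.51 in shSov, against 1.97 and 2.00 in shW. The groups overlapped in 6446001-6457000 and did not in 21827001-21841000. No run was found on 3R.

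**Figure D3:**
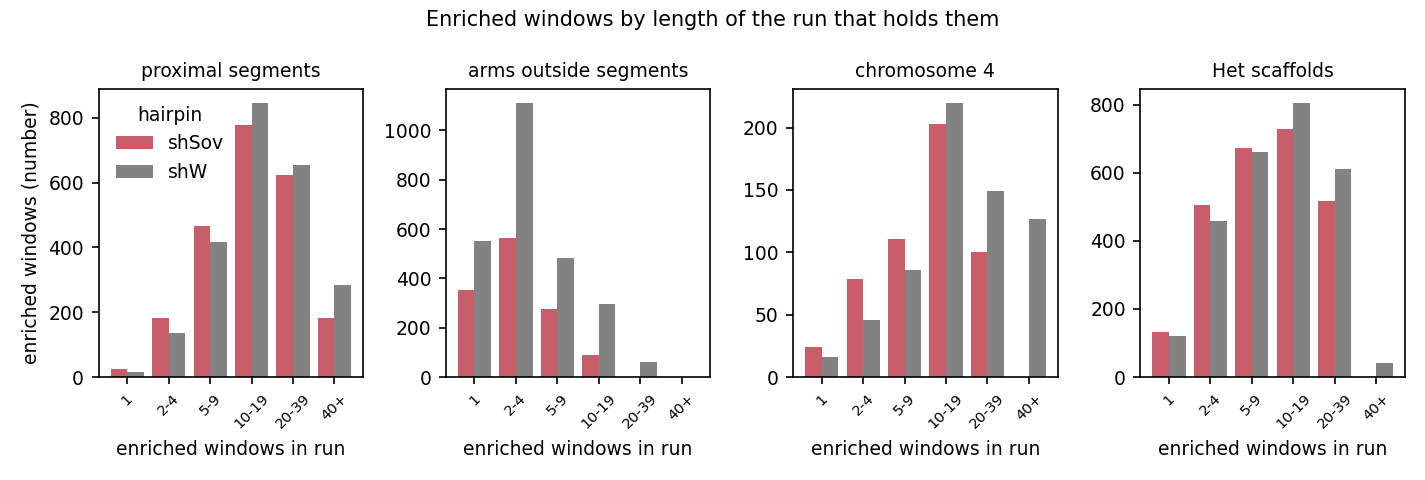
Number of enriched windows (y axis) by the number of enriched windows in the run that holds them (x axis), for shSov (red) and shW (grey) in 4 places; scales differ between panels. Outside the segments shSov has 352 enriched windows that stand alone and none in runs of 20 or more, while chromosome 4 has no shSov window in runs of 40 or more against 127 in shW.

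Where a run ended depended on the place. Of all run ends 67.6% abutted windows under the input minimum and 26.5% abutted examined windows below the threshold. On the Het scaffolds 82.3% of the ends were of the first kind, whereas on chromosome 4 78.9% were of the second. The first kind also made up 63.5% of the ends in the proximal segments, 88.5% on U and 56.25% on the arms outside the segments. Except on chromosome 4, run lengths were therefore mostly bounded by where the input minimum was met.

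At the edges, with runs placed in replicate 1 and measured in replicate 2, enrichment averaged 1.89 over the outermost 5 kb inside and 1.21 over the first 5 kb outside, a step of 0.68. With the replicates exchanged the step was also 0.68. Over these 5 kb it was largest outside the segments, at 1.16 and 0.90, and smallest on the Het scaffolds, at 0.40 and 0.35. Few Het windows next to an edge were examined, 23 in the first position outside against 57 in the third, with runs placed in replicate 1. In that first position Het averaged 0.82 and 0.84, against 1.91 and 1.95 in the outermost window inside. The outer arms averaged 0.74 and 0.52, against 1.66 and 1.23, so the order over 5 kb did not hold in the adjacent windows. Beyond 10 kb the level was back at 1.85 and 1.83 around runs of the proximal segments and stayed at 0.52 and 0.44 around runs on the outer arms. On chromosome 4 it was 1.06 and 1.13.

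**Figure D4:**
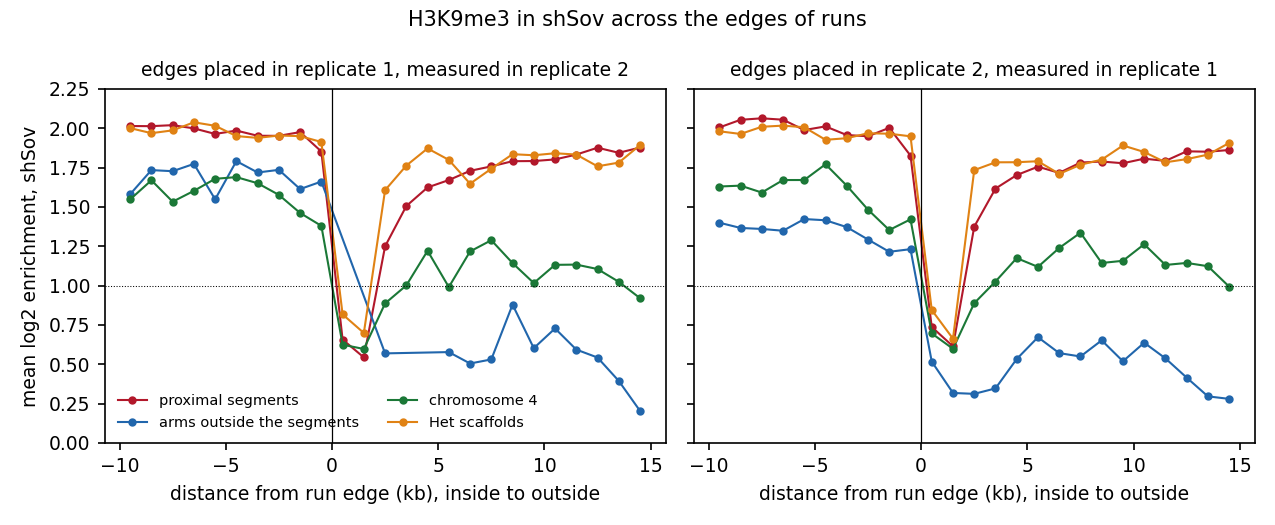
Mean log2 enrichment in shSov (y axis) by distance in kb from the edge of runs (x axis; inside to the left), with edges placed in one replicate and values from the other, by place. The dotted line marks the 2-fold threshold. Windows just outside are low in every place, as the placing rule asks of the first replicate, and levels recover in the segments and Het scaffolds but not on the outer arms.

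Chromosome 4 was marked along its length in a patchy way. In bins of 50 kb, 4 1150001-1200000 had the highest mean, 1.45 and 1.44 in shSov, with 35 of 49 windows enriched. Its neighbour 4 1100001-1150000 had 0.69 and 0.74, and 8 of 50 windows. The lowest bin, 4 250001-300000, had 0.20 and 0.18 in shSov, against 0.96 and 0.16 in shW, with 1 of 49 windows enriched. It followed directly on one of the highest, 4 200001-250000, at 1.45 and 1.41. The shW replicates disagreed on this chromosome, with chromosome means of 1.82 and 1.08, against 1.00 and 1.01 in shSov.

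Away from the segments the mark was rare and unevenly spread. There, 1283 of 109992 windows (1.17%) were enriched. X held 730 of them, 3.48% of its windows, while the other arms had between 0.403% (3R) and 1.10% (2R). In bins of 100 kb, 784 of 1148 had no enriched window and 10 had more than 20% of their windows enriched. Of these 10, 5 were on X, 3 on 2R in the 42AB region and 2 on 2L. 3R had none, and its most enriched bin reached 16.5%.

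The median enrichment of X was also higher, at -0.14, against -0.36 to -0.38 on 2L, 3L and 3R and -0.31 on 2R. The mean over X was -0.03 and -0.02 in the shSov replicates, against -0.14 and -0.16 in shW. This difference was not particular to X. Outside the segments the mean was higher in shSov than in shW by 0.12 on X, and by 0.16 (2L) to 0.21 (3R) on the other arms.

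The piRNA cluster regions, set as spans of whole 100 kb bins known from the literature, kept the mark to differing degrees. In 42AB (2R 2100001-2400000), the main cluster read from both strands in germ cells, 85 of 148 windows were enriched, and the region averaged 1.06 and 1.09 in shSov, against 1.55 and 1.61 in shW. In 80F (3L 23200001-23400000), 128 of 156 were enriched, with 1.82 and 1.79 in shSov, against 2.25 and 2.08 in shW. In 38C (2L 20100001-20300000), 29 of 139 were, with 0.53 and 0.59 in shSov, against 0.72 and 0.72 in shW. All 3 regions were lower in both shSov libraries than in either shW library. In shW, 105 windows were enriched in 42AB, 134 in 80F and 42 in 38C.

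The clusters on X are read from a single strand. flamenco (X 21500001-21700000), the cluster active in follicle cells, had 30 of 36 examined windows enriched, at 1.68 and 1.71 in shSov, against 1.89 and 1.62 in shW. 20A (X 21300001-21500000) had 3 of 153, at 0.22 and 0.28 in shSov, against 0.20 and 0.10 in shW. The groups overlapped in flamenco and did not in 20A, where the difference between shSov and shW turned to -0.13 when each library was centred on the distal autosomal arms. In shW, 26 windows were enriched in flamenco and 11 in 20A, so in both the count and the mean differed from shW in opposite directions. Of the 100 kb bins that cover most of flamenco, X 21622001-21722000, which also runs past its end, had 11 examined windows, all enriched, at 2.05 and 2.03 in shSov, against 1.45 and 1.36 in shW. X 21522001-21622000 had 14, all enriched, at 2.08 and 2.16 in shSov, against 2.33 and 2.36 in shW, so these bins differed from shW in opposite directions. Among the 7 regions the exact permutation test, two-sided, gave p-values of 0.333 to 1, and 0.583 to 1 after adjustment, and could not go below 0.333.

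The Polycomb-silenced homeotic clusters served as silent regions of another kind. In the Bithorax complex (3R 12500001-12800000) none of 294 windows was enriched, with means of 0.18 and 0.33 in shSov, against 0.64 and 0.25 in shW. In the Antennapedia complex (3R 2500001-2800000) none of 296 was, with 0.05 and 0.14 in shSov, against 0.34 and -0.02 in shW. In both complexes the groups overlapped.

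Against the control, the share of windows still above the threshold was highest in pericentromeric sequence. That share does not measure the level. Mean enrichment on the Het scaffolds was 1.83 and 1.83 in shSov, against 2.03 and 2.07 in shW. In the segments placed in shSov it was 1.83 and 1.83, against 2.21 and 2.10 in shW. Over all windows of the arms outside those segments it went the other way, at -0.23 and -0.27 in shSov against -0.48 and -0.37 in shW. For the count of windows kept, the segments were placed in shW, so that shSov values placed nothing. Of the 2441 windows enriched in both shW replicates in those segments, 2274 (93.2%) were also enriched in shSov. On the Het scaffolds 2521 of 2697 (93.5%) were, and on U 482 of 528 (91.3%). On chromosome 4 the mark was kept in 502 of 644 windows (78.0%). The arms outside the segments kept it in 1025 of 2413 (42.5%). Over all places 8809 windows (7.5%) were enriched in shW, and 6843 of these were also enriched in shSov.

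By arm, the outer-arm share was 49.9% on X against 31.8% on 3R, 32.5% on 3L, 37.5% on 2L and 39.1% on 2R. It also depended on single libraries: it was 23.6% when the 4560 windows enriched in shW replicate 1 alone were the base, and 59.0% when shSov replicate 2 alone was read. In the segments these values were 86.4% and 94.4%, and on the Het scaffolds 89.4% and 94.7%. On chromosome 4 they were 53.2%, with 970 windows as the base, and 83.7%.

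The share kept also moved with the level in shW. At a shW level of 1.5 to 2, the segments kept 459 of 562 windows (81.7%) and the Het scaffolds kept 727 of 824 (88.2%). At that level chromosome 4 kept 170 of 249 (68.3%), and the outer arms kept 431 of 843 (51.1%). At a level of 2 to 2.5 the segments kept 98.8%, the Het scaffolds 99.2%, chromosome 4 93.1% and the outer arms 82.2%. At both levels the outer arms were lowest, with no test run on the order. At 2.5 and over, 98.5% was kept on the outer arms and 100% in the other places.

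**Figure D5:**
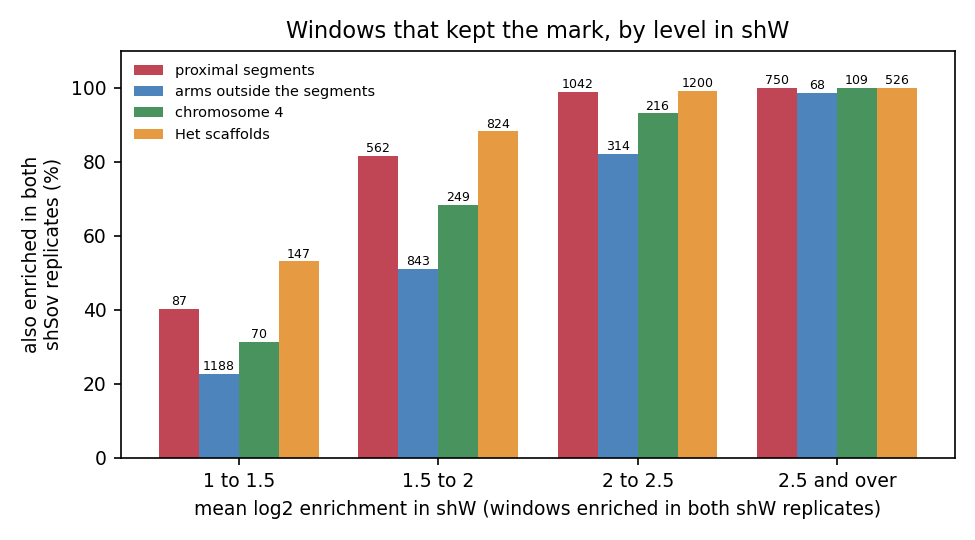
Share of windows enriched in both shW replicates that were also enriched in both shSov replicates (y axis, %), by mean log2 enrichment in shW (x axis) and place; the number above each bar is the number of shW windows. At 1.5 to 2 the outer arms keep 51.1% against 88.2% on the Het scaffolds, and at 2.5 and over all places are between 98.5% and 100%.

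The difference in ChIP over input between shSov and shW was also tested window by window, with the interaction term of edgeR's quasi-likelihood test over all 8 libraries. Over all windows 706 (0.601%) were lower in shSov and 308 (0.262%) were higher at an adjusted p below 0.05, and the median log2 difference was 0.19. Among the 7143 windows enriched in shSov, 22 were lower and 5 were higher, or 0.308% and 0.070%, both below the share over all windows. These windows had been chosen for being high in shSov, which bears on their count. Their median difference was -0.30. The count of lower ones was 119 without shW ChIP replicate 1, 817 without shW ChIP replicate 2 and 0 to 5 without any other single library, and the count of higher ones was 27 without shW ChIP replicate 2. A group left with 1 library in such a fit is assumed to vary like the other groups. Over all windows, leaving out shW ChIP replicate 2 gave 4995 lower and 4461 higher. Of the 1966 windows enriched in shW and not in shSov, 394 were lower, 329 of them among the 1408 on the outer arms. This set was chosen by the same values and gets no reading beyond its count.

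The runs were tested as summed counts. At an adjusted p below 0.05, 0 of the 204 runs were lower and 0 higher, which is 0% in each direction, by edgeR. At an unadjusted p below 0.05, 59 were lower and 0 higher, the smallest adjusted p was 0.070, and the median log2 difference was -0.24, or -0.44 relative to the median of all windows. These values depended on scaling. With TMM factors taken over all windows, an alternative added after seeing the data, 98 runs were lower and 0 higher at an adjusted p below 0.05 by edgeR, with a median of -0.40. With TMM factors taken over the runs themselves, which centres the runs, 0 were called, with 5 lower and 10 higher at an unadjusted p below 0.05 and a median of 0.03. DESeq2, also scaled on the runs, called 2 lower, with 13 lower and 3 higher at an unadjusted p below 0.05 and a median of -0.03. Of the runs 187 had a lower mean enrichment in shSov and 17 a higher one, and the replicates of the groups did not overlap in 156 of the lower and 2 of the higher ones. The count of calls by edgeR was 129 lower without shW ChIP replicate 1, and 70 lower and 4 higher without shW ChIP replicate 2. In these fits the shW ChIP group has a single library, which is assumed to vary like the other groups.

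Of the windows called higher in shSov, 3L 15063001-15064000 had a log2 difference of 2.36 (adjusted p = 4.19e-04, edgeR) and 2R 2679001-2680000 one of 1.68 (adjusted p = 0.0041, edgeR). The other 3 were X 21083001-21084000, X 21121001-21122000 and 2R 16363001-16364000, and all 5 lay on the outer arms. Of the 22 that were lower, 12 were on the outer arms, 6 on the Het scaffolds, 3 in the segments and 1 on U. The largest fall was that of X 6650001-6651000, at -1.64 (adjusted p = 0.0080, edgeR). These few windows were named after their values were seen.

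Enrichment in shSov alone was uncommon. It was found in 300 windows that missed the threshold in at least one shW replicate, with a median of 1.20 in shSov against 1.00 in shW. Of these, 223 were enriched in one shW replicate, and 158 lay on X.

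The scaffold Uextra, a collection of unplaced fragments, stood apart. It had 44 enriched windows of 128 (34.4%), and a mean of 0.21 and 0.37 in shSov, against 1.51 and 1.69 in shW. The 47 windows enriched in shW and not in shSov had a median of 4.36 and 5.99 RPKM in the shSov ChIP libraries, against 20.4 and 15.7 RPKM in the shW ones. Their median input also differed, at 4.51 and 4.71 RPKM in shSov, against 2.63 and 2.97 RPKM in shW. The part that input plays in the low enrichment was not tested.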

How the data were processed

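H3K9me3 ChIP and input were sequenced from shSov and shW ovaries, 2 libraries of each, as single reads, per the labels' protocols. The submitters' processing notes name Bowtie, bedtools and build dm3; how reads that map to several places and duplicates were treated is not given in the sources used here. The authors deposited a count of reads and an RPKM value for each 1 kb window. The deposited RPKM matched RPKM recomputed from the counts over all windows. Replicates were numbered from the titles, where the repeat is replicate 2. Each ChIP was set against the input of its number. The replicate differences of ChIP and input correlated at 0.084 in shSov and 0.003 in shW. Such low values do not show pairing by number, nor do they settle its absence. Nothing says whether replicates are separate dissections, so p-values measure the spread between these libraries, which may be technical.

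Enrichment used a pseudocount of 1, a minimum mean shSov input RPKM of 2, and no mitochondrial windows. Counts were tested with edgeR 4.0.16, after a test on simulated data, with limma 3.58.1 and DESeq2 1.42.0 as alternatives, and single values with an exact permutation test. Runs named are the longest by place and arm, the 5 highest and the 5 lowest; single windows are the strongest by place. The places, regions and runs were chosen with earlier results of these data known. No dm3 genome was used, so windows carry no gene names.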

Additional observations from a re-analysis of the deposited data

Results flagged for a closer look

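The 51282 windows under the input minimum enter no comparison, yet held a signal: summed over them, the shSov ChIP share of reads over the shSov input share was 2.1431 on the log2 scale (mean of 2.14 and 2.14 in the replicates). It was 2.3837 in those of the Het scaffolds, 2.2833 in those of U and 1.9916 in those of Uextra. In shW the sum over all of them was 2.30 and 2.32. Of these windows 29677 had no read in any shSov library.

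The interaction test of edgeR found 22 windows enriched in shSov with a lower ChIP over input than in shW, and 5 with a higher one.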

How the results depend on the processing

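The counts of enriched windows and runs follow the thresholds by construction. Enriched windows numbered 3788 with an input minimum of 5 RPKM, 11210 with any window read in both inputs, 11190 at a threshold of 0.5 and 2451 at a threshold of 2 (log2). Runs numbered 131 (2139 kb) with a pseudocount of 5, 69 (1120 kb) with the input minimum of 5, 330 (7369 kb) with any window read in both inputs, 135 (18681 kb) when windows under the minimum were ignored in joining, 457 with at least 5 windows, 55 (1542 kb) with at least 20, and covered 2151 kb with no gap joined. The step at run edges was 0.681 with the replicates exchanged and 0.748 for runs of at least 5 windows.

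Under the alternatives that left out no library, mean enrichment kept its direction on the Het scaffolds (1.28 to 2.18), U (0.71 to 1.99), chromosome 4 (0.80 to 1.35) and the proximal 1 Mb (0.78 to 1.39), and the boundary differences kept theirs on 2L (-40.5 to -21 kb), 2R (-69 to -26.5 kb) and 3L (-25 to -1.5 kb). Mean enrichment reversed in Uextra, at -0.32 with an input minimum of 5, and in the distal arms, at 0.10 when centred on the distal autosomal arms, which that centring brings about. Of the regions, the difference between shSov and shW reversed for flamenco, at 0.0081 with a pseudocount of 5, 0.19 with any window read in both inputs and 0.079 without shW ChIP replicate 1, for 20A, at -0.13 when centred, and for the Bithorax complex, at 0.0035, and the Antennapedia complex, at 0.11, without shW ChIP replicate 1.

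The share kept in the segments was 94.8% with a pseudocount of 0.1, 84.4% with 5, 91.2% with any window read in both inputs, 95.5% when centred, 91.1% with shSov libraries thinned to equal depth and 89.6% with all 8 thinned. These settings were chosen after seeing the data. ChIP over input was higher in 25387 windows with any window read in both inputs, and lower in 10628 with TMM factors and 1414 with DESeq2.

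In the test against shW, windows higher in shSov numbered 122 with TMM factors, 58 with DESeq2, 188 with a block for the shared lysate (added after seeing the data) and 3476 on ChIP counts alone, which also gave 3686 lower. In this window test DESeq2 gave no adjusted p for 61477 of the 117442 windows, so its counts rest on fewer windows. Runs that differed numbered 17 higher and 90 lower on ChIP counts alone, 2 lower with DESeq2, 5 lower with the input minimum of 5 and 98 lower with TMM factors taken over all windows (added after seeing the data). Among windows enriched in shSov, 3 higher and 39 lower were called with TMM factors, 3 and 54 with DESeq2, and 292 and 894 on ChIP counts alone.

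The replicate numbers are shared by the groups, but no pairing of the samples by number was seen in the values. With the replicate number as a block, ChIP over input was higher in 16740 and lower in 56705 windows, the test against shW gave 261 higher and 622 lower windows, 0 runs either way, and 5 higher and 15 lower among windows enriched in shSov.

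Leaving out one library at a time gave 86.4% to 96.2% kept in the segments and 23.6% to 59.0% on the outer arms, and 35751 to 52839 windows lower in ChIP than in input. In the test against shW it gave 48 to 4461 windows higher and 176 to 4995 lower, 0 to 4 runs higher and 0 to 129 lower, and 2 to 27 higher and 0 to 817 lower among windows enriched in shSov. The differences ranged between -0.197 and 0.079 for flamenco, -0.385 and 0.0035 for the Bithorax complex, and -0.242 and 0.11 for the Antennapedia complex. Except where said, the cause of these changes was not tested. The shallowest library was shW ChIP replicate 1, which limits the precision of every difference from shW.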
